A study of Rattus norvegicus with 20 samples.

Results

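The genes described here encode the subunits and assembly chaperones of the proteasome, measured in the nucleus accumbens shell of alcohol-preferring (P) rats, part of the ventral striatum and of the reward system. They were chosen by symbol: every gene whose symbol begins with Psma, Psmb, Psmc, Psmd or Psmg and a digit, without the immunoproteasome subunits Psmb8, Psmb9 and Psmb10. The platform annotation gave 38 such genes on 49 probe sets, of 14217 genes on 20826 probe sets that name 1 gene, and where a gene had several, the brightest on average over the 20 arrays was used. All 38 lay above the level under which dim probe sets were left out, so every gene was tested. Psmc3ip is found by its symbol although it is no subunit but a meiotic recombination factor named after its binding partner, and it is given apart. Psmb6, the catalytic subunit with caspase-like activity, is not among them because its probe set names several genes.

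Rats of the P line, bred for high voluntary ethanol intake, were either given access to solutions of 15 and 30% ethanol during adolescence (n = 10 animals) or to water alone (n = 10 animals). Each animal gave 1 array, and the animals are numbered separately in the titles, so p-values measure differences against the variation among animals. The line was selected for drinking, no other strain is among the samples, and neither age nor intake is given in the labels. The comparison asks which transcripts differed between drinking and water animals.

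The proteasome is the protease complex that degrades ubiquitin-tagged proteins in the cytosol and nucleus. Its core particle is a barrel of alpha rings, which gate the entrance, and beta rings, which hold the cutting sites, and its regulatory particle binds ubiquitin, removes it and unfolds the substrate with a ring of ATPases. In neurons the complex also acts at synapses, where protein turnover accompanies plasticity, and its genes can be transcribed together through the factor NFE2L1, which binds antioxidant response elements.

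Promoter sequences are shown for the subunits that hold the core of that element upstream of their start, since it is the control site best known for this gene family. The promoters (250 bases before to 50 after the start, RefSeq, rat build GRCr8) of 34 of the 38 genes were found, and those of Psma7, Psmd6, Psmd12 and Psmd14 were not. The core TGACNNNGC, searched on both strands, occurred in 6 of 34 (17.6%) and in 12.1% of all 33469 promoters of the table. The match of Psmd3 and a second match of Psmd1 lay downstream of the start and are not printed. The upstream matches follow in 5 genes, 70 bases each, with the matches in capitals.
Psma3, chr6:95219679-95219748, plus strand: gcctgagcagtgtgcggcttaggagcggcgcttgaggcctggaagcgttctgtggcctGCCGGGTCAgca
Psmb2, chr5:144254959-144255028, plus strand: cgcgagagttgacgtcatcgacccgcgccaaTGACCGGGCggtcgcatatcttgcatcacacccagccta
Psmb5, chr15:32047401-32047470, minus strand: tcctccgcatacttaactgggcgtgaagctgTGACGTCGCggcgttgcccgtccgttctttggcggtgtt
Psmd1, chr9:94157775-94157844, plus strand: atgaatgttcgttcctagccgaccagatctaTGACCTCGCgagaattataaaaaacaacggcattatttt
Psmd9, chr12:39018326-39018395, minus strand: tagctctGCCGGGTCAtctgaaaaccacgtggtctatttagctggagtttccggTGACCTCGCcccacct

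The matches of Psmb5 and Psmb2, both beta ring subunits, began 60 and 68 bases before the start. The Psma3 match lay on the reverse strand 12 bases before it, and Psmd9 held 1 match on each strand. A variant core, TGAGNNNGC, was found in 10 of 34 promoters (29.4%, against 17.2% of all), and the CCAAT box, the site of the factor NF-Y, in 18 of 34 (52.9%, against 37.5% of all). In Psmb2 the CCAAT box and the TGACNNNGC match share 1 letter. The promoters held a median of 20 CG dinucleotides, against 7 over all promoters, and a median GC content of 56.5%, against 51.7%. The third quartile over all promoters was 19 CG dinucleotides and 60.3% GC. The shares of promoters with a match were not matched for composition. These matches describe letters only and show no binding. The 34 genes lie on 16 chromosomes, with 5 each on chromosomes 1 and 10.

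No proteasome gene passed the test between ethanol and water animals. With limma and Benjamini-Hochberg adjustment over all 20695 probe sets tested, 0 of 38 were higher and 0 were lower at an adjusted p under 0.05, where 0.0838% of 10746 genes were higher and 0.00931% lower (0.0931% in all). At such background shares a count of 0 does not set the genes apart. Unadjusted p-values under 0.05 were found for 4 of the 38 (Psma3, Psmc6, Psmd3 and Psmd12). All 4 were lower in ethanol, beside 4.77% of all genes, and 0 were higher, beside 5.24% of all genes. This count was not firm. It was 1 without ethanol animal 1, 2, 5 or 7, 2 without water animal 14 or 20, and 1 with a measure of RNA degradation, described at the end, as a covariate.

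The differences were small and closely measured. They ran from -0.17 for Psmc6 to 0.080 for Psma5 on the log2 scale, with 22 negative and 16 positive and a median of -0.018, beside 0.00016 over all genes tested. Their standard errors lay between 0.030 and 0.089, with a median of 0.039 against 0.056 over all genes. The members were bright, with means from 8.66 (Psmc3ip) to 13.30 (Psmb4), above the array medians of 7.93 to 7.98. Members and all genes tested were not matched for brightness. For 34 of the 38 genes the whole 95% interval lay within 0.2 of zero, a change of less than 1.15-fold either way, as it did for 62.5% of all genes. The intervals of Psma3, Psmb7, Psmc6 and Psmd12 reached beyond that bound. In all 38 genes the ranges of the groups overlapped, and 0.0651% of all genes showed no overlap.

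**Figure D1:**
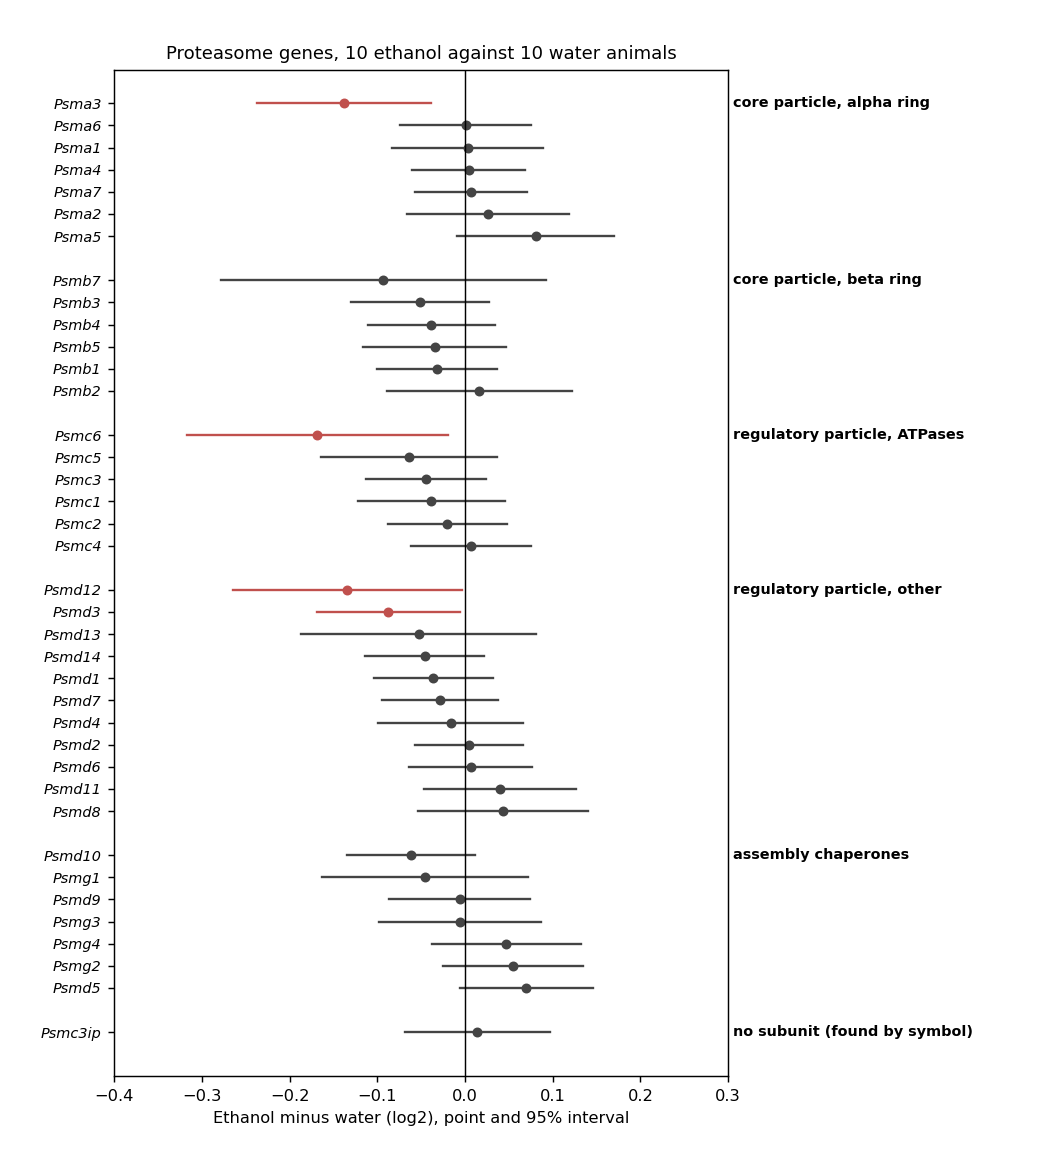
Difference between ethanol and water animals (log2, ethanol minus water) for the 38 genes, grouped by their place in the complex; points are the estimates, lines the 95% intervals, and red marks an unadjusted p under 0.05. Nearly all points lie within 0.1 of zero, and the largest differences are those of Psmc6, Psma3 and Psmd12, none of which passed after adjustment.

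The alpha ring, whose amino-terminal tails close the entrance of the barrel, had 1 negative and 6 positive differences among its 7 measured genes, with a median of 0.0042. Psma3 was the member with the smallest p. In ethanol it ran from 10.57 over a median of 10.73 to 10.87, and in water from 10.70 over 10.82 to 11.05. Of the 10 ethanol animals 9 lay below the water mean, although the ranges overlapped. The difference was -0.14 ± 0.048 (SE), with a 95% interval of -0.24 to -0.038, and did not pass (limma, adjusted p = 0.308, and between 0.223 and 0.764 over the alternatives). It was -0.065 with the degradation covariate. A further probe set on the array names Psma3 together with its close relative Psma3l, and whether Psma3l adds to the values given here was not tested.

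Psma5 leaned the other way. It lay between 12.18 and 12.37 in ethanol (median 12.27) and between 11.96 and 12.30 in water (median 12.25). The lowest 3 water values were those of animals 17, 12 and 13, while the other 7 were within the ethanol range. Its difference of 0.080 ± 0.043 did not pass (adjusted p = 0.455), and was 0.014 without water animals 12, 13, 17, 19 and 20. The remaining alpha subunits were nearly level, with Psma6 at 12.92 ± 0.062 in ethanol and 12.92 ± 0.075 in water (SD, n = 10 each) and differences of 0.00069 to 0.026 across Psma6, Psma1, Psma4, Psma7 and Psma2.

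In the beta ring 5 of 6 measured genes had a negative difference and 0 passed (median -0.036). Psmb5 carries the chymotrypsin-like site, the target of bortezomib-type inhibitors. Its values were 13.09 to 13.21 in ethanol (median 13.14) and 13.06 to 13.39 in water (median 13.18), so the ethanol range lay inside the water range. The difference was -0.034, with an interval of -0.12 to 0.047 (adjusted p = 0.722), and -0.010 without water animal 20. Psmb5 is also the gene whose promoter, printed above, holds the element core 60 bases before the start.

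Psmb7, which carries the trypsin-like site, had the largest within-group SD of all members, 0.21. Its SD was 0.080 in ethanol and 0.29 in water, and 0.11 in water without animal 20. In ethanol it ran from 11.16 to 11.42 (median 11.26), and in water from 11.16 to 12.12 (median 11.25). The water mean was set by 1 animal: number 20 stood at 12.12 and the next water animal at 11.51. The difference of -0.093 (interval -0.28 to 0.092, adjusted p = 0.667) became -0.0082 without that animal. Psmb3 and Psmb4, which have no cutting site, differed by -0.051 and -0.039, with intervals of -0.13 to 0.027 and -0.11 to 0.034 (adjusted p = 0.576 and 0.646). Without water animal 18 the Psmb3 difference was -0.034, and without water animal 12 that of Psmb4 was -0.024.

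Among the 6 ATPases, which pull the substrate into the core, 5 differences were negative and 0 passed (median -0.042). Psmc6 had the largest difference of all members. Ethanol values ran from 10.52 over a median of 10.90 to 11.04, and water values from 10.66 over 11.08 to 11.15. Of the ethanol animals 4 lay at or below 10.72 and 6 at or above 10.87, while 8 of 10 water animals lay at or above 10.99. The difference was -0.17 ± 0.072, with an interval of -0.32 to -0.019 (adjusted p = 0.379, and between 0.227 and 0.740 over the alternatives). The 2 further Psmc6 probe sets also gave negative differences, -0.13 and -0.077, with adjusted p-values of 0.377 and 0.527. Psmc3 and Psmc5 differed by -0.045 and -0.064 (adjusted p = 0.579 and 0.586). Ethanol animals lay below the water mean in 9 of 10 cases for Psmc3 and in 8 of 10 for Psmc5, and the differences were smaller than the SD of the water animals (0.072 and 0.13).

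The other 11 subunits of the regulatory particle bind and release ubiquitin and hold its parts together, and 7 of them had a negative difference (median -0.028, 0 passed). Psmd3 and Psmd12 are scaffold subunits of the lid. Psmd3 ran from 9.87 to 10.10 in ethanol (median 9.95) and from 9.94 to 10.16 in water (median 10.03), a difference of -0.087 ± 0.039 (adjusted p = 0.394). With the degradation covariate the Psmd3 difference was -0.048 (adjusted p = 0.796). Psmd12 ran from 10.73 to 11.07 in ethanol (median 10.86) and from 10.68 to 11.31 in water (median 10.97). In both genes 9 of 10 ethanol animals lay below the water mean. The water animals of Psmd12 spanned more than the ethanol animals, holding both the lowest value (animal 12) and the highest (animal 20). Its difference was -0.13 ± 0.063 (adjusted p = 0.404), -0.099 without animal 20 and -0.061 without water animals 17, 19 and 20.

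Psmd14, the deubiquitinase that cuts ubiquitin chains off the substrate, depended on the probe set. The probe set that stands for it differed by -0.046 (interval -0.11 to 0.022, adjusted p = 0.558), and the other 2 by 0.059 and 0.10 (adjusted p = 0.572 and 0.456). Psmd11 and Psmd7, named after their values were seen, also had a second tested probe set of the opposite sign: 0.040 against -0.090 for Psmd11 and -0.028 against 0.0085 for Psmd7. In Psmd9 both tested probe sets were negative, at -0.0060 and -0.049. No further tested probe set of any member passed, where 0.0966% of all 20695 did. The further probe sets of Psmb5 and Psmc4 and another of Psmd11 lay below the dim level and were not tested. Psmd2 and Psmd6, a ubiquitin-binding scaffold and a lid subunit, differed by 0.0048 and 0.0064, and Psmd2 had the smallest spread of all members, with a within-group SD of 0.047.

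Assembly chaperones, which build the alpha ring (Psmg1 to Psmg4) and the base of the regulatory particle (Psmd5, Psmd9 and Psmd10) and leave the finished complex, had 3 positive and 4 negative differences (median -0.0057, 0 of 7 passed). Psmd5 lay between 10.37 and 10.61 in ethanol (median 10.50) and between 10.26 and 10.50 in water (median 10.43). Ethanol animals lay above the water mean in 8 of 10 cases, and the difference of 0.070 ± 0.037 did not pass (adjusted p = 0.446). Psmd10, also known as the oncoprotein gankyrin, differed in the other direction by -0.061 ± 0.035 (adjusted p = 0.476), and Psmg2 by 0.055 ± 0.038 (adjusted p = 0.554). Psmc3ip, the gene that is no subunit, stood at 8.66 ± 0.077 in ethanol and 8.65 ± 0.083 in water (SD, n = 10 each), a difference of 0.014.

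**Figure D2:**
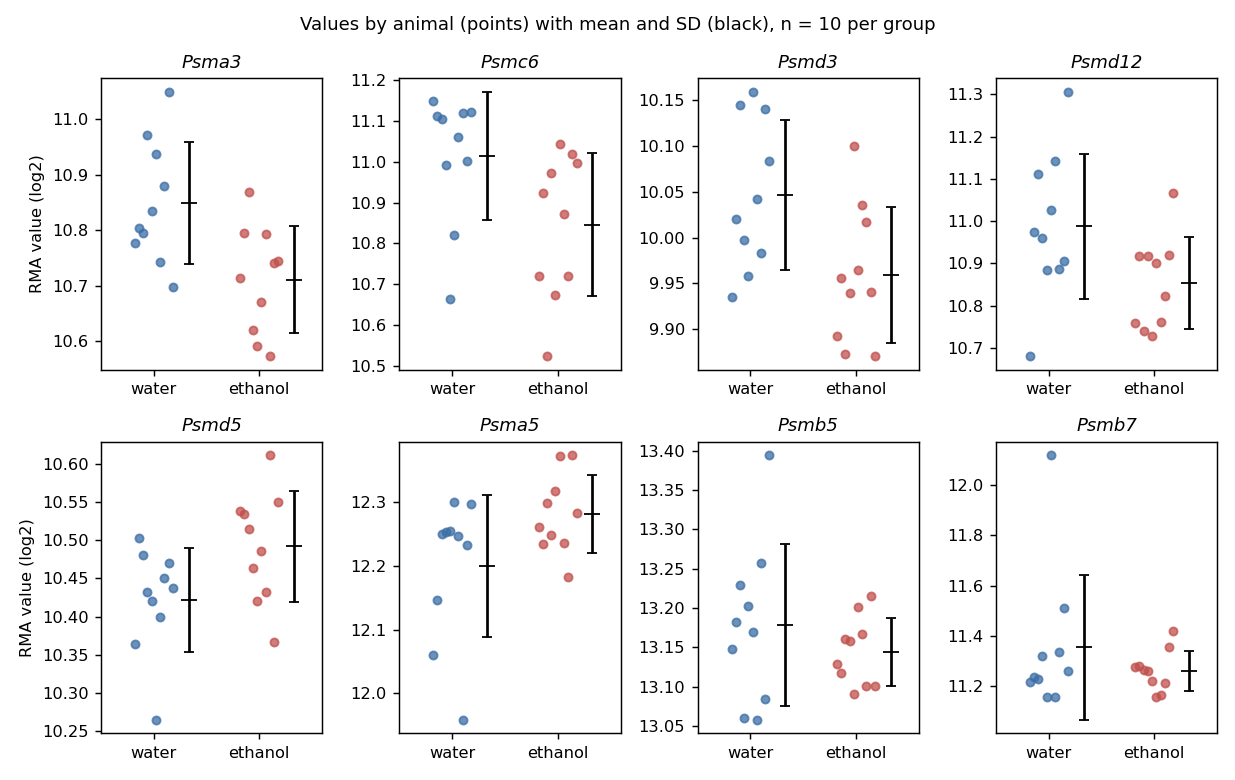
RMA values (log2) of 8 genes in each of the 10 water (blue) and 10 ethanol (red) animals, with the group mean and SD in black; each panel has its own axis, which does not start at 0. The groups overlap in every panel, and in Psmb7 a single water animal lies at 12.12, above the next at 11.51.

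The genes varied little between animals and varied more in water than in ethanol. Their median within-group SD was 0.078, against 0.13 over all genes tested, which were not matched for brightness. The SD ran from 0.047 for Psmd2 to 0.21 for Psmb7, followed by Psmc6 at 0.17 and Psmd13 at 0.15. For Psmb7 the water SD was 0.11 without water animal 20, and the ethanol SD was 0.080. Water animals had the larger SD in 30 of 38 genes (78.9%), as they did in 81.2% of all genes. The median SD was 0.067 in ethanol and 0.083 in water.

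Averaged over the 38 genes, each as its deviation from its own mean over all arrays, the arrays lay between -0.045 and 0.023 in ethanol and between -0.031 and 0.11 in water. The group means were -0.011 ± 0.029 and 0.011 ± 0.041 (SD, n = 10 each). Water animal 20 stood apart at 0.11, with 32 of 38 genes above their own median, and without it the other 9 water animals averaged 0.00019. It held the highest value of all 20 arrays in 7 genes (Psmb5, Psmb7, Psmc2, Psmd6, Psmd10, Psmd12 and Psmg1) and the lowest in 0. Its beta ring mean was 0.23, its mean over the ATPases 0.11 and its mean over the alpha ring 0.028. In the beta ring Psmb7 lay 0.81 above its own mean, and the other 5 genes 0.052 to 0.23 above theirs, with a mean of 0.11.

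In other animals parts of the complex lay on opposite sides of their means. Water animal 17 had the lowest value of all arrays in 9 genes, among them Psma1, Psma2, Psma5 and Psmb2, and the highest in 4 (Psma3, Psmc3, Psmc5 and Psmd4). Its alpha ring mean was -0.078 and its ATPase mean 0.063. Ethanol animals 2 and 7 had the highest value in 6 and 5 genes, and ethanol animals 4, 9 and 10 had 8, 9 and 9 genes above their own median. In water, animals 14, 15 and 16 had 10, 8 and 9, so such animals were found in both groups.

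Markers of medium spiny neurons, the main cells of the striatum, define the labelled tissue, and 15 of 16 listed genes were on the array and above the dim level. Their mean ran from 12.38 to 13.08 in ethanol and from 11.57 to 13.06 in water. All 15 had a positive difference (median 0.27, 0 passed), and all 11 tested oligodendrocyte markers a negative one (median -0.17, 0 passed). Endothelial markers were positive in 5 of 6 tested genes (median 0.11), and microglial and astrocyte markers negative in 6 of 8 each (medians -0.12 and -0.043), and 0 passed. Water animal 20 had the lowest medium spiny neuron mean, 11.57, and animals 17 and 19 the next, 11.89 and 12.14. Animal 20 also had the highest mean of the microglial markers (9.53, 8 of 8 listed genes tested) and of the astrocyte markers (11.48, 8 of 9 tested). Gene by gene, it was highest for the microglial markers Tmem119, Aif1, Csf1r, Ctss and P2ry12. Cx3cr1 and Trem2 were highest in water animal 12 and Itgam in water animal 17. Of the astrocyte markers only Fgfr3, Gjb6 and Aqp4 were highest in animal 20. The mean of the listed excitatory neuron markers was highest in animal 20 too (9.28, 3 of 7 genes tested, Rorb, Cux2 and Slc17a6). From which region such transcripts came was not tested. Of these 3 genes only Slc17a6 was highest in animal 20 (9.98, water median 7.43), while Rorb was highest in water animal 12 and Cux2 in ethanol animal 3. Below the dim level, Slc17a7 and Neurod6 were highest in ethanol animal 3 and Tbr1 in ethanol animal 7. The part of tissue makeup in the proteasome values of water animal 20 was not tested. In bulk tissue fewer cells of a type and less RNA per cell cannot be told apart. Without water animals 17, 19 and 20 the median over the 38 genes was -0.0062, and 0 passed. Without animal 20 alone it was -0.0057.

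**Figure D3:**
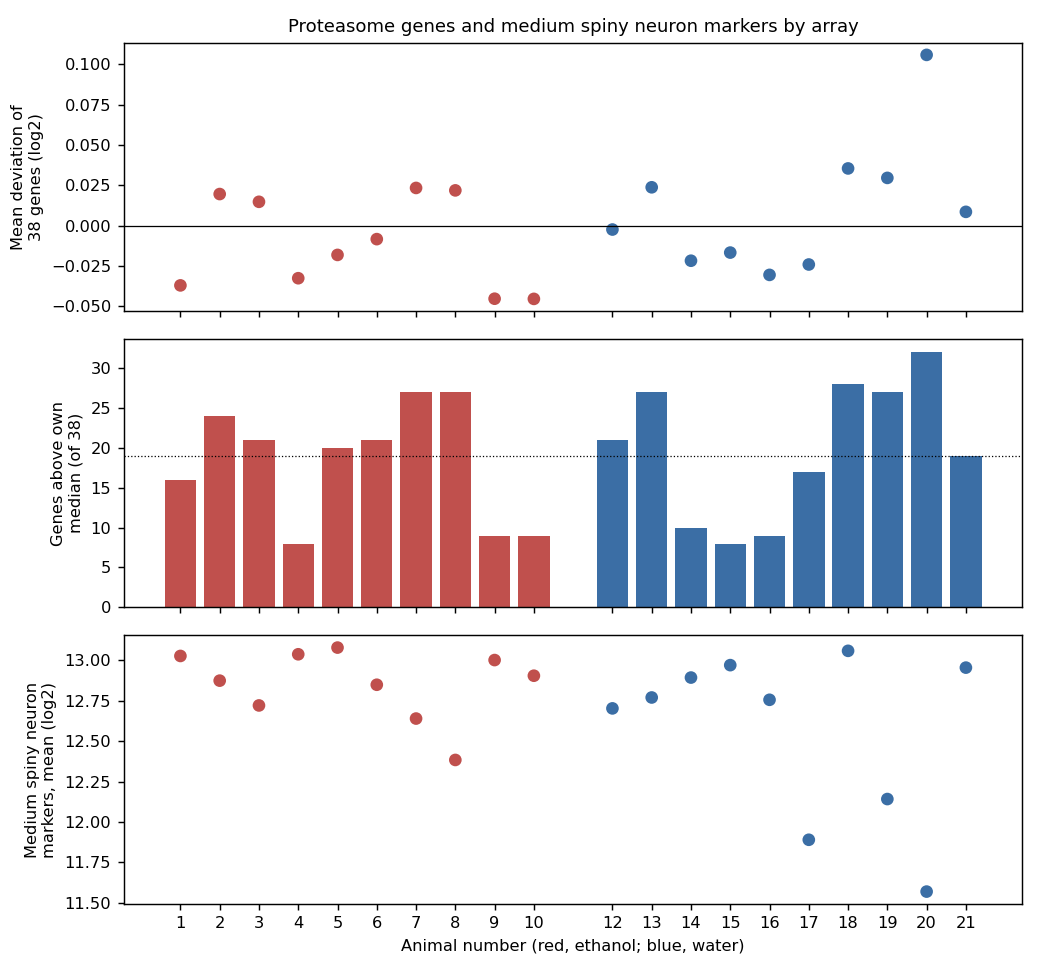
For each animal (red, ethanol; blue, water), the mean deviation of the 38 genes from their own means (log2, top), the number of the 38 genes above their own median (middle, dotted line at 19) and the mean of the medium spiny neuron markers (log2, bottom). Water animal 20 has the highest proteasome mean, 0.11, and the lowest marker mean, 11.57. Water animals 17 and 19, the next lowest in marker mean, have proteasome means of -0.024 and 0.030.

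Other genes of the ubiquitin and proteasome pathway were listed apart from the 38. Of the 5 listed genes of the immunoproteasome and its activator PA28, which are induced by interferon, 4 were tested and 0 passed. Psmb8 lay just above the dim level, at 6.82 ± 0.20 in ethanol and 6.69 ± 0.15 in water (difference 0.13, interval -0.022 to 0.29, adjusted p = 0.469). Psmb10 differed by 0.054 (adjusted p = 0.697), and by 0.034, 0.033 and 0.023 without water animal 17, 19 or 20. Psmb9, at 6.44 ± 0.22 and 6.38 ± 0.19, lay below the dim level and was not tested. The activator subunit Psme1 differed by -0.12 (interval -0.35 to 0.10, adjusted p = 0.639), and by -0.047 without water animal 20.

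Among 11 tested regulators and proteins bound to the complex, 0 passed and 7 differences were negative (median -0.011). Akirin2, which brings proteasomes into the nucleus, had the largest difference of the pathway, at 8.39 ± 0.18 in ethanol and 8.13 ± 0.20 in water. The difference was 0.26 ± 0.081 (SE), with 9 of 10 ethanol animals above the water mean, and did not pass (limma, adjusted p = 0.287, and between 0.143 and 0.748 over the alternatives). With the degradation covariate it was 0.10. Adrm1, a ubiquitin receptor of the regulatory particle, stood at 8.49 ± 0.053 in ethanol and 8.68 ± 0.24 in water. All 10 ethanol animals lay below the water mean, which water animal 20 raised with a value of 9.32. The difference was -0.19 ± 0.075 (adjusted p = 0.338), and -0.12 without that animal.

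Ubiquitin activation and delivery gave a like picture. The activating enzymes Uba1 and Uba6 differed by -0.088 and 0.045 (adjusted p = 0.541 and 0.662), but by -0.042 for Uba1 without water animal 20 and by 0.019 for Uba6 without water animal 12. Of 9 shuttle factors and VCP partners 8 had a negative difference and 0 passed (median -0.036). Ubqln4, which carries ubiquitinated proteins to the proteasome, differed by -0.11 ± 0.048 and the VCP cofactor Nploc4 by -0.065 ± 0.038 (adjusted p = 0.374 and 0.486). In both, every one of the 10 ethanol animals was below the mean of the water animals. For Ubqln4 water animal 20 was the highest of its group (10.41, next 10.24), and the difference was -0.086 without it. At their smallest over the alternatives the differences were -0.049 for Ubqln4 and -0.0089 for Nploc4.

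Genes that control proteasome transcription were split, 4 positive and 4 negative, with 0 of 8 passing (median 0.0087). Nfe2l1, the factor that acts through the element shown in the promoters above, stood at 11.58 ± 0.083 in ethanol and 11.62 ± 0.073 in water, a difference of -0.034 (interval -0.12 to 0.047, adjusted p = 0.722). It was -0.052 without ethanol animal 4 and -0.016 without ethanol animal 10. Ngly1, which removes sugars from the NFE2L1 protein as part of its activation, differed by -0.13 ± 0.055 (adjusted p = 0.375). Nfyb, a subunit of the CCAAT-binding factor NF-Y, differed by 0.10 ± 0.037 (adjusted p = 0.327), and all 10 ethanol animals lay above the water mean. For Nfyb water animal 20 was the lowest of its group (10.11, next 10.17), and the difference was 0.082 without it. At unadjusted p-values under 0.05 the pathway lists held 5 of 34 tested genes (Akirin2, Adrm1, Ubqln4, Nfyb and Ngly1), of which 2 were higher and 3 lower in ethanol, beside 5.24% and 4.77% of all genes.

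**Figure D4:**
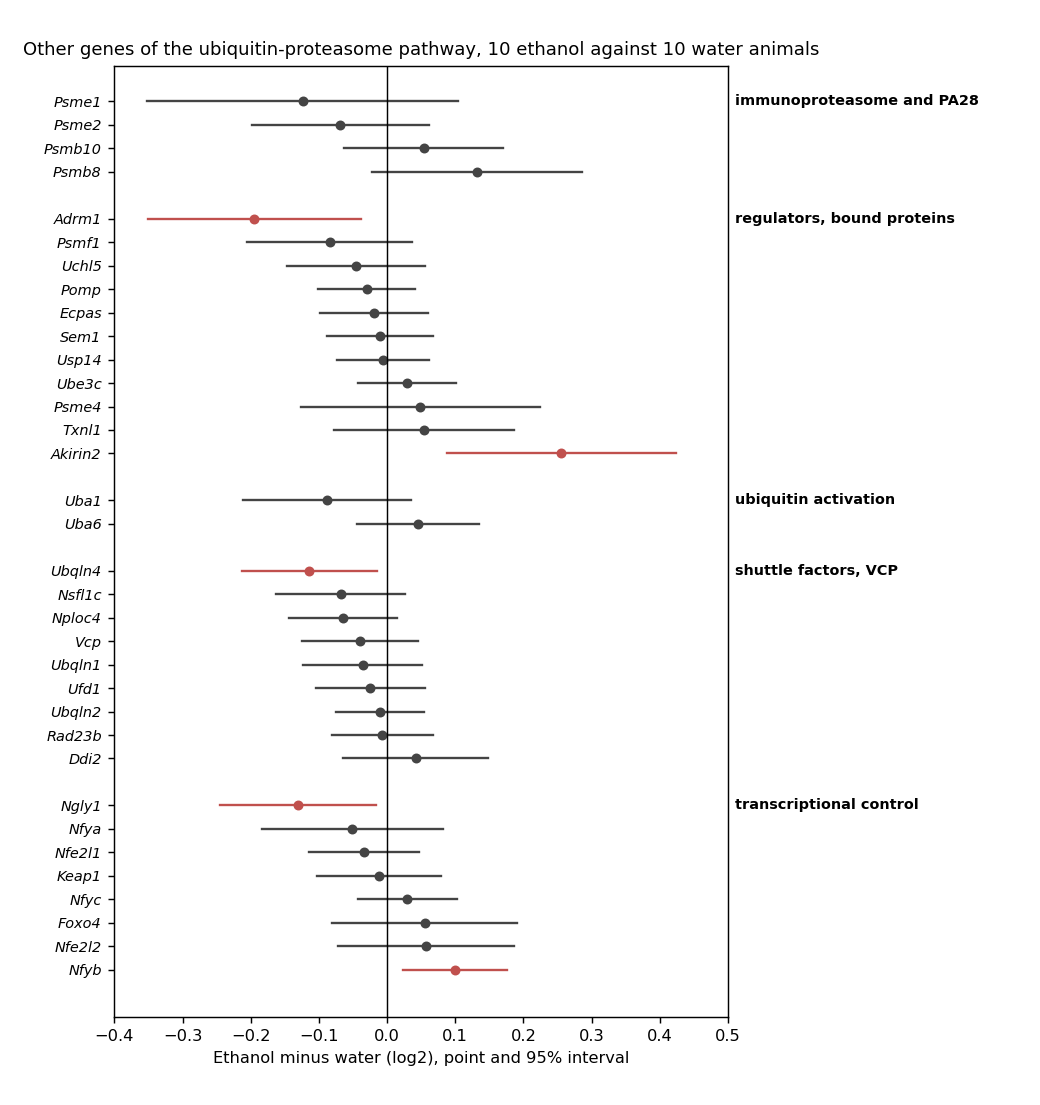
Difference between ethanol and water animals (log2, ethanol minus water) for the other pathway genes tested, by list; points are the estimates, lines the 95% intervals, and red marks an unadjusted p under 0.05. Akirin2 lies highest at 0.26 and Adrm1 lowest at -0.19, and no gene passed after adjustment.

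Array medians lay between 7.93 and 7.98. The 3' minus 5' value, the mean over actin, Gapdh and hexokinase of the control probe set near the 3' end minus that near the 5' end, is larger where RNA is degraded. It was 1.16 ± 0.11 in ethanol and 1.29 ± 0.15 in water, a difference of -0.13 (two-sided permutation test, 100000 resamples, p = 0.038). With it as a covariate 0 of the 38 genes passed, and the differences were -0.065 for Psma3 and -0.18 for Psmc6, with adjusted p-values of 0.764 and 0.740.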

How the data were processed

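Biotin-labelled cRNA from 50 ng of total RNA was hybridised to 1-colour Affymetrix arrays, per the labels' protocols. The deposited values are on the log2 scale (3.89 to 16.25) and were made with RMA per the submitters' processing notes. Its software and the chip definition were not given in the sources used here. RMA equalizes the arrays' distributions, so a change common to most transcripts cannot be seen.

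Of 31099 probe sets, 57 controls and the dimmest 33.3% by mean (below 6.65) were left out. Ethanol was compared with water by limma (version 3.58.1, R 4.3.3; lmFit and eBayes, two-sided, no covariate), with Benjamini-Hochberg adjustment over 20695 probe sets and a threshold of 0.05. The fit was tested on simulated data. Array quality was compared with a permutation test. Differences are ethanol minus water. The number of arrays sets the precision.

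The named genes are the 12 members of smallest p, the 2 of smallest p in each part of the complex, Psmb5 and Psmb7, and the 2 of smallest p in each pathway list, with Nfe2l1, Psmb8, Psmb9 and Psmb10. Genes outside this rule are named for a range, a level or an extreme array after their values were seen. The members and lists were chosen with earlier results of these data known. Alternatives changed the filter, normalization, variance model, weights, covariates, probe set choice, threshold or animals. A variant without Psmc3ip and the count at unadjusted p were added after seeing the data. Animal number 11 was not analysed here. Protein sequences were not used here.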

Additional observations from a re-analysis of the deposited data

Results flagged for a closer look

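In each group of 10 animals, the highest or lowest value was marked where its gap to the next, over the group's range, exceeded Dixon's 95% critical value. Of 104 groups of values examined, 7 were marked, and chance marks about 1 in 20. Water animal 20 was the highest of its group for Psmb7 (12.12, next 11.51), for Adrm1 (9.32, next 8.77) and for the mean deviation of the 38 proteasome genes (0.106, next 0.035). Water animal 21 was the lowest for Psmd1, a large scaffold subunit of the regulatory particle (10.89, next 11.02). Water animal 12 was the lowest for Ngly1 (10.14, next 10.42). Ethanol animal 2 was the lowest for the activating enzyme Uba6 (9.86, next 9.99), and ethanol animal 10 the lowest for Psmb9 (5.91, next 6.30), which lay below the dim level.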

How the results depend on the processing

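No proteasome gene passed in any of 12 alternatives or with any of the 20 animals left out, nor at an adjusted p under 0.1. The median difference lay between -0.030 and 0.0089 over the alternatives, and between -0.030 and -0.0057 with 1 animal left out. The number of genes at an unadjusted p under 0.05 was 2 with array weights and 1 with the degradation measure as covariate, and 1 to 4 with 1 animal left out. Of the 27 genes refitted, those that the naming rule gives, some changed sign without passing, and the cause was not tested. Without water animals 12, 13, 17, 19 and 20 these were Psmc5 (0.031), Psmb4 (0.010), Psmb5 (0.033), Psmb7 (0.056), Psmb10 (-0.031), Psme1 (0.14) and Uba1 (0.020). Without water animals 17, 19 and 20 they were Psmb7 (0.0087), Psmb10 (-0.037) and Psme1 (0.065). With the mean over a gene's probe sets they were Psmd14 (0.038), Nfe2l1 (0.033) and Uba6 (-0.018), with array weights Psmb5 (0.0020) and with the degradation covariate Nfe2l1 (0.018). No single animal left out changed the sign of these 27. No paired analysis was possible because the animals of the groups are numbered separately. The number of arrays limits precision.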
